A study of Rattus norvegicus and Mus musculus with 14 samples.

Results

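A group of 6 genes of mitochondrial energy supply, represented by 12 probes, were followed across the 14 arrays of the series. They were COX3 with 7 probes and Atp5f1a, Atp5mc1, Atp5pb, Ndufaf1 and Mrpl37 with 1 probe each. Every probe was taken whose single gene symbol in the annotation of the array was one of these 6, out of 342 genes with 384 such probes and out of 1152 probes in all. Another 762 probes have no symbol in that annotation and 6 have several, so further probes of these genes may be on the array without a name.

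The samples fall into 8 groups. Rat embryonic cortical neurons were treated with a solution the labels call CSS, which is the control, with NMDA, or with NMDA together with an inhibitor, and no group received an inhibitor without NMDA. The inhibitor was PD98059 in one set of experiments (the MEK set) and nitroarginine in the other (the NOS set). Each set had experiments 1 and 2 with 1 array per treatment, which gives 2 arrays in each of the 6 rat groups. The other 2 arrays held brain cortex from an adult c57bl mouse without neuronal nitric oxide synthase (nNOS) and from an adult wild-type littermate. NMDA is an agonist of a class of glutamate receptors that admit calcium, PD98059 blocks MEK, the kinase that activates ERK, and nitroarginine inhibits nitric oxide synthases. The sources used here do not give the dose, the duration of treatment, the culture age or the number of animals. The genes carry rat records, so the mouse values rest on hybridisation across species. The labels do not state whether the 2 arrays of a group stand for separate cultures, and p-values therefore describe the spread between arrays alone, which may be technical.

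Mitochondria make most of the ATP of a neuron. Electrons pass through the complexes of the respiratory chain to oxygen, protons are pumped across the inner membrane on the way, and ATP synthase uses their return flow to make ATP. COX3 is encoded by mitochondrial DNA and is a core subunit of cytochrome c oxidase, the last complex of the chain. The other 5 genes are nuclear. Atp5f1a encodes the alpha subunit of the catalytic head of ATP synthase, Atp5mc1 its membrane-embedded subunit c, and Atp5pb subunit b of the stalk that holds the head still. Ndufaf1 encodes a factor needed to assemble complex I, where electrons enter the chain. Mrpl37 encodes a protein of the large subunit of the mitochondrial ribosome, which translates COX3 and the other mitochondrial messages, and so is not itself an assembly factor.

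The 7 COX3 probes do not all stand for the same sequence record. Probes 421, 843, 966, 1022 and 1034 carry 1 record and probes 350 and 904 carry another, which is the complete rat mitochondrial genome. For those 2 probes the symbol therefore does not fix which mitochondrial transcript was read, and the clone sequences were not used here. The 5 nuclear genes matched the current rat gene table by gene identifier and COX3 did not.

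All values are Z-scores within an array, where 0 is the mean of all probes and 1 unit is about 1 SD over probes. A higher score was read as a brighter probe, which no source states. No fold change can be derived, and a change common to all probes is removed. Brightness also depends on the clone, so a higher Z-score of one probe than of another says nothing of which transcript was more abundant. Some facts about the arrays touch the values below. The control column of MEK experiment 1 was moved down by 1 row, because it correlated at 0.830 with the median of the other 11 rat arrays after that move and at 0.10 as deposited. Even then it correlated with the other 5 MEK arrays at only 0.858 to 0.867, against 0.971 to 0.995 among those 5. NOS experiment 2 stood apart from NOS experiment 1, with correlations of 0.454 to 0.617 between arrays of the 2 experiments, against 0.989 to 0.991 within experiment 1 and 0.894 to 0.937 within experiment 2.

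COX3 350 was the brightest COX3 probe on all 14 arrays. MEK experiment 1 gave 1.26 in control, 1.45 with NMDA and 1.39 with NMDA and PD98059, and the repeat gave 1.42, 1.56 and 1.50. In NOS experiment 1 it had 1.93 in control, 2.13 with NMDA and 1.87 with NMDA and nitroarginine, and in NOS experiment 2 it had 2.71, 2.76 and 2.55. Over the 12 rat arrays it lay between percentiles 93.6 and 99.1 of all probes. The NMDA array was the highest of its experiment in all 4 experiments. The MEK set, NOS experiment 1 and NOS experiment 2 did not overlap for COX3 350 at any treatment.

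COX3 904 carries the same record as COX3 350 and sat far below it. Its values in control, NMDA and NMDA with PD98059 were -0.94, -0.22 and -0.26 in MEK experiment 1 and -0.17, -0.31 and -0.20 in MEK experiment 2. In control, NMDA and NMDA with nitroarginine they were 0.14, 0.35 and 0.22 in NOS experiment 1 and 0.34, 1.0 and 0.66 in NOS experiment 2. The MEK arrays were all below 0 and the NOS arrays all above it, so the sets did not overlap for COX3 904. The root mean square difference between COX3 350 and COX3 904 over the 14 arrays was 2.01, the largest between any 2 COX3 probes.

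The other 5 COX3 probes shared a profile in which NOS experiment 2 was the highest. COX3 421 had 1.01, 1.15 and 0.91 in MEK experiment 1 for control, NMDA and NMDA with PD98059, and 0.85, 0.97 and 0.86 in MEK experiment 2. For control, NMDA and NMDA with nitroarginine it had 0.83, 0.99 and 1.07 in NOS experiment 1 and 1.28, 1.97 and 1.77 in NOS experiment 2. COX3 1034 had -0.83, 0.26 and 0.32, then 0.40, 0.30 and 0.27, then 0.13, 0.43 and 0.62, then 1.52, 2.06 and 1.92 in the same order. The control array of MEK experiment 1 was thus more than 1 unit below every other MEK array for COX3 1034, while for COX3 421 it lay among them. COX3 843 had 0.74, 0.47 and 0.64, then 0.66, 0.59 and 0.60, then -0.20, 0.32 and 0.31, then 1.71, 1.92 and 1.74. COX3 966 ranged from 0.44 to 2.69 over the rat arrays and COX3 1022 from -0.10 to 1.85, both with the lowest value in the control of MEK experiment 1. COX3 1022 and COX3 1034 were the closest pair, with a root mean square difference of 0.264.

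The ATP synthase probes went 2 ways. Atp5f1a had 1.0, 0.89 and 0.96 in MEK experiment 1, then 0.89, 0.94 and 0.90 in the repeat, 0.90, 0.87 and 0.99 in NOS experiment 1 and -0.11, 0.44 and 0.23 in NOS experiment 2. Atp5mc1 had 0.23, 1.29 and 1.33, then 1.19, 1.31 and 1.27, then 1.17, 1.21 and 1.37, then -0.41, -0.33 and 0.06 in the same order. Both were lower on the 3 arrays of NOS experiment 2 than on any other array of the NOS set, and Atp5mc1 was also low in the control of MEK experiment 1. Atp5pb was dim throughout, from -1.19 to -0.28 with a median of -0.99, between percentiles 17.4 and 44.9 of all probes, and its 3 values in NOS experiment 2 were the highest of the 12.

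Ndufaf1, the complex I assembly factor, separated the sets and the NOS experiments without overlap. It had 0.67, 0.75 and 0.84 in MEK experiment 1, then 1.22, 0.82 and 0.82 in the repeat, 1.58, 1.65 and 1.33 in NOS experiment 1 and 2.52, 2.60 and 2.51 in NOS experiment 2. All NOS arrays were above all MEK arrays for Ndufaf1. Mrpl37, of the mitochondrial ribosome, had the narrowest range of the 12 probes, from -0.42 with NMDA and nitroarginine in NOS experiment 1 to 0.44 in the control of MEK experiment 2. Whether the differences between the sets and experiments come from the cells or from the arrays cannot be told apart. Each array belongs to 1 experiment, and the labels name no batch.

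**Figure D1:**
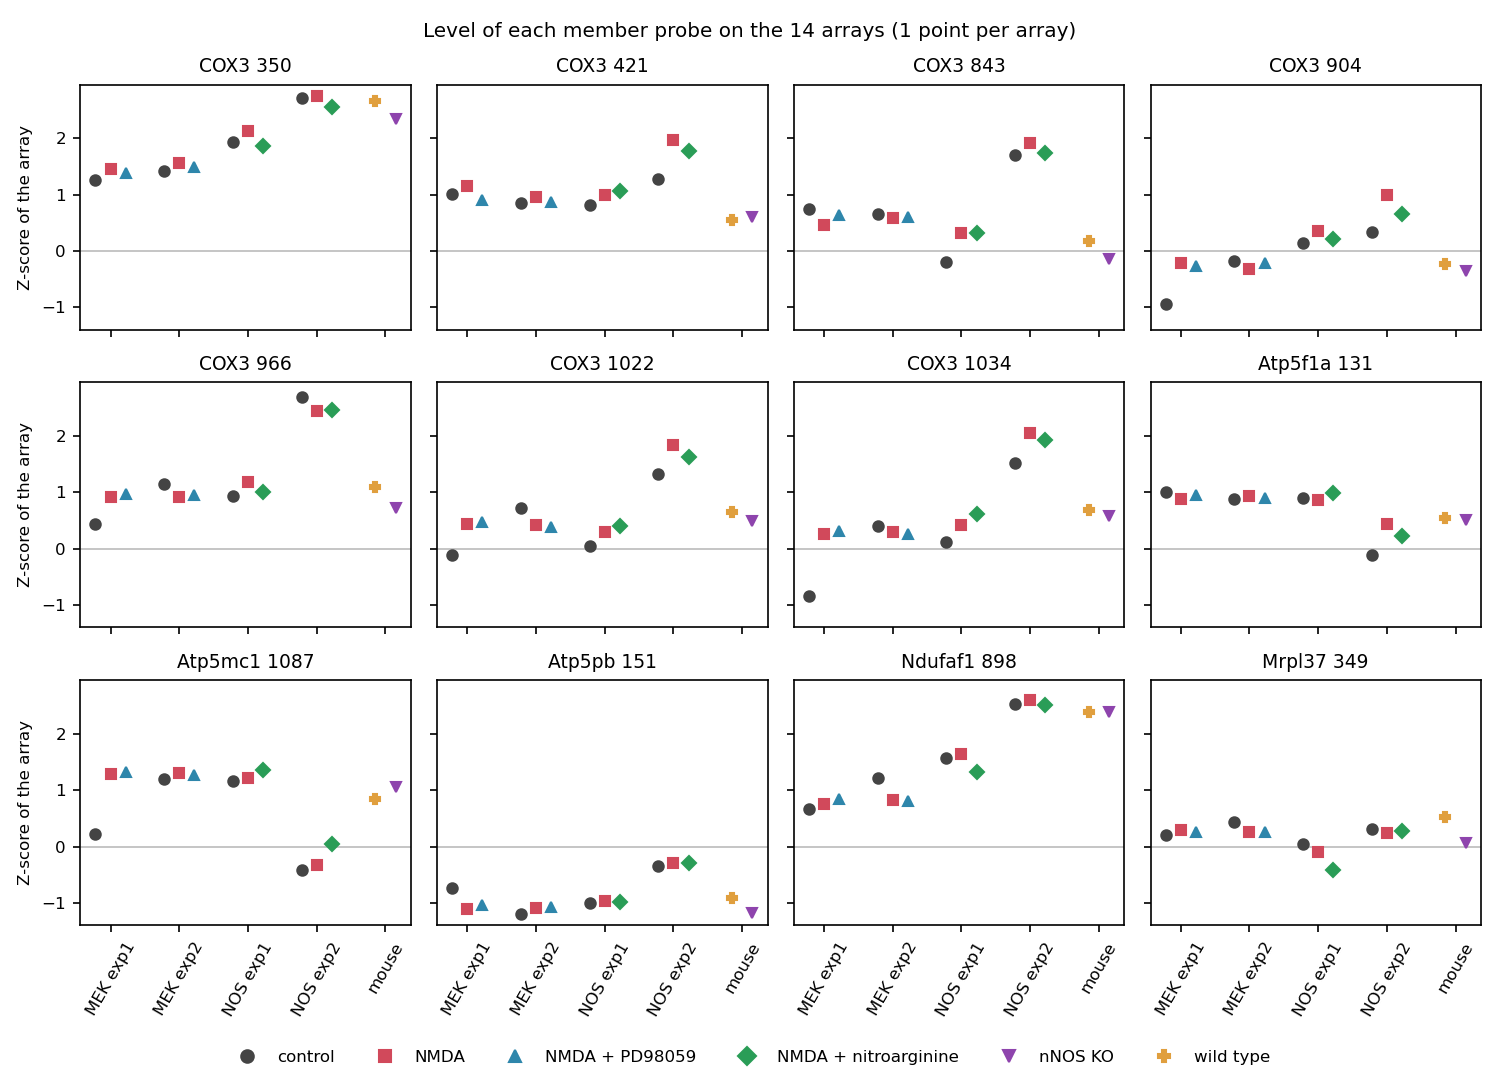
Z-score (vertical axis, in units of the array's SD) of each of the 12 probes on each of the 14 arrays, by experiment and treatment, 1 point per array with no error bar. Among the rat arrays, Ndufaf1 and the COX3 probes other than COX3 904 stand highest in NOS experiment 2, Atp5f1a and Atp5mc1 stand lowest there, and the control of MEK experiment 1 lies apart from its set for COX3 1034, COX3 904 and Atp5mc1.

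Stimulation with NMDA addresses what glutamate receptor activity does to transcript levels in these neurons. COX3 probes were on balance higher with NMDA than in control in both experiments of the NOS set and in MEK experiment 1, and lower in MEK experiment 2, and none passed the test. In NOS experiment 1 NMDA was above control for 7 of 7 COX3 probes, with a median difference of 0.25 against -0.01 over all probes. In NOS experiment 2 it was above control for 6 of 7, all but COX3 966, with a median of 0.52 against 0.08. The control array of that experiment had an SD over probes of 0.857, against 0.991 for its NMDA array. The SD of all differences there was 0.44, against 0.13 in NOS experiment 1. The part of this unequal spread in the COX3 differences was not tested. In MEK experiment 1 NMDA was above control for 6 of 7, all but COX3 843, with a median of 0.48 against -0.02. In MEK experiment 2 it was above control for 2 of 7, COX3 350 and COX3 421, with a median of -0.10 against 0.04. The share of all probes above control was 46.0% and 56.6% in NOS experiments 1 and 2 and 47.4% and 56.9% in MEK experiments 1 and 2. The 7 COX3 probes carry the symbol of 1 gene and were read on the same arrays. Counts of these probes, here and below, are therefore not counts of separate observations. In RNA from whole cultures, fewer cells of a type and less RNA per cell cannot be told apart.

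These counts moved with the scaling of the arrays. The 4 counts, in the order MEK experiments 1 and 2 and NOS experiments 1 and 2, were 6, 4, 7 and 6 of 7 after centring each array on its median, which shifted the median difference of all probes in MEK experiment 2 from 0.04 to 0.16. They were 5, 2, 6 and 4 of 7 after quantile normalisation, and 6, 3, 7 and 7 of 7 after removing a running median along the probe order. The COX3 median stayed above 0 in NOS experiments 1 and 2 under all 3, falling to 0.09 in NOS experiment 2 after quantile normalisation.

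Single probes differed in how evenly they did so. COX3 350 was higher with NMDA by 0.19, 0.14, 0.19 and 0.04 in MEK experiments 1 and 2 and NOS experiments 1 and 2. COX3 421 was higher by 0.14, 0.12, 0.17 and 0.69, and Atp5mc1 by 1.06, 0.12, 0.05 and 0.08. These were the 3 of 12 probes above control in 4 of 4 experiments, a direction that 10.2% of all probes showed. None of the 12 was below control in 4 of 4, against 4.6% of all probes. COX3 1034 differed by 1.09, -0.10, 0.30 and 0.54, and COX3 904 by 0.72, -0.14, 0.21 and 0.66. The 0.52 of COX3 843 in NOS experiment 1 stood at percentile 99.8 of all differences in that experiment, but the same probe was lower with NMDA in both MEK experiments, by -0.27 and -0.07. Atp5f1a differed by more than 0.11 in either direction only in NOS experiment 2, at 0.55. For Atp5pb, Ndufaf1 and Mrpl37 the 4 differences ran from -0.36 to 0.11, from -0.39 to 0.08 and from -0.19 to 0.09.

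**Figure D2:**
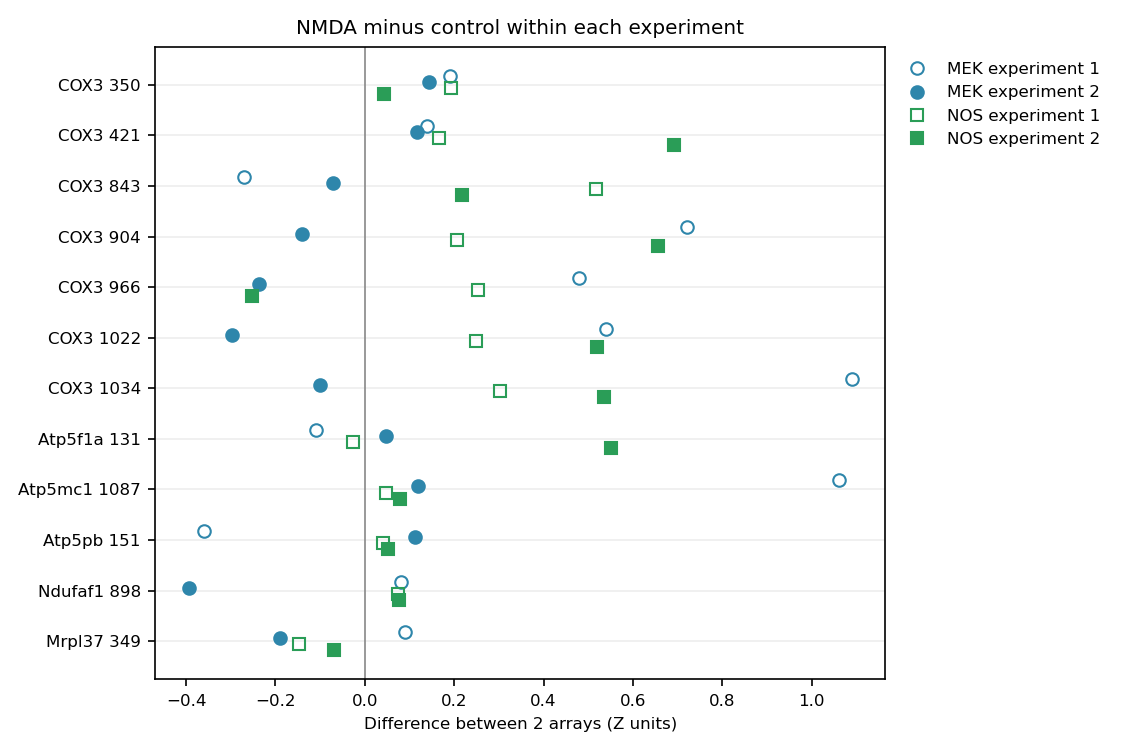
Difference in Z-score between the NMDA and the control array of the same experiment (horizontal axis, Z units) for each of the 12 probes, 1 marker per experiment (open for experiment 1, filled for experiment 2). The NOS markers of COX3 lie right of 0 except COX3 966 in experiment 2, and the MEK experiment 1 markers of COX3 1034 and Atp5mc1 lie farthest right, at 1.09 and 1.06.

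Fitted over both sets with limma, which compared the 6 group means of the 12 rat arrays, the NMDA effect was above 0 for 7 of 7 COX3 probes, with a median of 0.25 Z units. Over the 12 probes it was above 0 for 9, with a median of 0.13, against 577 of 1152 probes and a median of 0.0004 over the array. COX3 1034 was at 0.46 (SE 0.48), COX3 904 at 0.36 (SE 0.23), COX3 421 at 0.28 (SE 0.26), COX3 1022 at 0.25 (SE 0.43) and COX3 350 at 0.14 (SE 0.25). COX3 843 and COX3 966 were at 0.10 (SE 0.50) and 0.06 (SE 0.47). Atp5mc1 was at 0.33 (SE 0.47), Atp5f1a at 0.12 (SE 0.26), Atp5pb at -0.04 (SE 0.25), Ndufaf1 at -0.04 (SE 0.34) and Mrpl37 at -0.08 (SE 0.20). No effect of the 12 exceeded 2 SE, and 0 of 12 passed an adjusted p of 0.05, as did 0% of all probes, with 11 of 1152 at an unadjusted p under 0.05. The smallest p of the 12 was 0.150, for COX3 904, whose 95% interval ran from -0.16 to 0.88, and its limma adjusted p was 1.0. With experiment as a replicate block the SEs of the 12 were 0.10 to 0.19, and the 95% intervals of COX3 421 (0.03 to 0.53), COX3 904 (0.03 to 0.69) and COX3 1034 (0.03 to 0.88) lay above 0 before adjustment. No probe passed with the block either, and the limma adjusted p of these 3 was 0.436. With the block and without the control array of MEK experiment 1, the intervals were 0.004 to 0.58 for COX3 421, -0.11 to 0.44 for COX3 904 and -0.10 to 0.40 for COX3 1034.

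One array set part of these values. Without the control array of MEK experiment 1, COX3 966 was at -0.12, COX3 1022 at 0.05, COX3 1034 at 0.15, COX3 904 at 0.17 and Atp5mc1 at 0.09, while COX3 421 was at 0.32 and COX3 350 at 0.10. On that array COX3 1034 was 1.23 below the control of MEK experiment 2, against a median of 0.33 below for the 24 probes nearest to it in the probe order. Atp5mc1 was 0.96 below, against 0.21 below for its neighbours, and COX3 1022 was 0.83 below, against 0.20 below. What lowered these probes on that array was not tested.

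By set, the limma effect of NMDA in the MEK set was 0.59 (SE 0.67) for Atp5mc1, 0.49 (SE 0.68) for COX3 1034 and between -0.17 and 0.29 for the other 10 probes, with 6 of 7 COX3 probes above 0. Without the control array of MEK experiment 1, 2 of 7 COX3 probes were above 0, COX3 421 at 0.21 and COX3 350 at 0.09, while COX3 904 was at -0.09, COX3 1034 at -0.12, COX3 966 at -0.24, COX3 1022 at -0.29 and Atp5mc1 at 0.11. No probe of the 12 passed, as did 0% of all probes, with 16 probes at an unadjusted p under 0.05. In the NOS set it was 0.43 for COX3 421 (SE 0.36) and COX3 904 (SE 0.32), 0.42 (SE 0.68) for COX3 1034, 0.38 (SE 0.61) for COX3 1022 and 0.37 (SE 0.70) for COX3 843. COX3 966 was at 0.0006 in the NOS set, where its 2 experiments had differences of 0.25 and -0.25. There 11 of 12 probes were above 0 with a median of 0.19, against 626 of 1152 and 0.02, none of the 12 passed, as did 0% of all probes, and 2 probes had an unadjusted p under 0.05. With the block, the NOS set intervals of COX3 421 (0.07 to 0.79) and COX3 843 (0.01 to 0.72) lay above 0 before adjustment. Their limma adjusted p was 0.688, and the intervals of the other COX3 probes included 0. The difference of the NMDA effect between the sets ran from -0.53 (SE 0.95) for Atp5mc1 to 0.54 (SE 0.99) for COX3 843. In that test 0 of 12 passed, as did 0% of all probes, with 4 probes at an unadjusted p under 0.05. With the block the interval of COX3 843 was 0.04 to 1.04 before adjustment (limma adjusted p = 0.555), and those of the other probes of these genes included 0. Without the block and without the control array of MEK experiment 1, the difference was -0.04 for Atp5mc1 and 0.50 for COX3 843. It was then above 0 for 7 of 7 COX3 probes in place of 4 of 7. With the block and without that array it ran from -0.06 for Atp5pb to 0.70 for COX3 1022. Whether the NMDA effect on these genes differs between the sets is therefore not settled by these arrays.

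Markers of cell types were few on the array. Of 15 neuronal marker genes 3 were present (Uchl1 with 2 probes, Nefl and Stmn2), and Tubb3, Map2 and Rbfox3 had no named probe. Their mean Z-score was -0.24 and 0.17 in the MEK controls and 0.41 and 0.47 with NMDA, and -0.14 to 0.12 in the NOS controls and 0.26 to 0.34 with NMDA. Of 10 astrocyte genes 2 were present (Gfap with 2 probes and Glul), with means of -0.11 to 0.01 in the NOS controls and 0.11 to 0.14 with NMDA, and -0.20 to -0.03 and -0.19 to -0.16 in the MEK set. Csf1r was the 1 microglial gene of 8, with 0.36 and 0.84 in the NOS controls and 0.44 and 1.33 with NMDA, and with 0.46 to 0.55 and 0.37 to 0.48 in the MEK set. None of 9 oligodendrocyte and 7 endothelial genes had a named probe. The mean of the neuronal markers was thus higher with NMDA in both sets and that of the astrocyte markers in the NOS set, while the ranges of Csf1r overlapped. Over both sets the astrocyte probes did not move together. NMDA minus control was -0.06 and 0.25 for the 2 Gfap probes and -0.03 for Glul. For the neuronal probes it lay between 0.25 and 0.53. The part of these markers in the COX3 values was not tested.

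Addition of PD98059 to NMDA addresses how far MEK signalling carries the NMDA response. The mitochondrial genes differed little between NMDA with PD98059 and NMDA alone. In MEK experiment 1 the differences ran from -0.24 for COX3 421 to 0.17 for COX3 843, and in MEK experiment 2 from -0.10 for COX3 421 to 0.11 for COX3 904. COX3 421 and COX3 350 were lower with PD98059 in both experiments, COX3 350 by -0.06 and -0.07. COX3 843, COX3 966 and Atp5pb were higher in both, by 0.17 and 0.01, by 0.06 and 0.04, and by 0.06 and 0.01. The limma effects ran from -0.17 (SE 0.36, 95% interval -0.99 to 0.65) for COX3 421 to 0.09 (SE 0.70) for COX3 843, with a median of 0.02, against 0.02 over all probes. None of the 12 passed, as did 0% of all probes, and 0 of 1152 probes had an unadjusted p under 0.05. With experiment as a block the interval of COX3 421 was -0.53 to 0.19, so equal levels with and without PD98059 are not shown.

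Set against the control in place of NMDA, cultures with NMDA and PD98059 had limma differences of 0.59 (SE 0.67) for Atp5mc1, 0.51 (SE 0.68) for COX3 1034 and 0.32 (SE 0.32) for COX3 904, with the other 9 between -0.12 and 0.17. This comparison uses the same control arrays as NMDA against control, where those 3 probes had 0.59, 0.49 and 0.29. Without the control array of MEK experiment 1 they were at 0.11, -0.10 and -0.06 against the control, and 2 of 7 COX3 probes were above 0 in place of 5 of 7. None of the 12 passed, as did 0% of all probes, with 16 probes at an unadjusted p under 0.05.

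Addition of nitroarginine to NMDA addresses the part of nitric oxide synthesis in the response. COX3 probes were lower with nitroarginine than with NMDA alone in 4 of 7 cases in NOS experiment 1 and in 6 of 7 in NOS experiment 2, with medians of -0.006 and -0.20 against 0.009 and -0.03 over all probes. COX3 350 was lower by -0.26 and -0.20 and COX3 904 by -0.13 and -0.34, and COX3 843, which carries the other record, by -0.006 and -0.18. Atp5pb was also lower in both experiments, by -0.02 and -0.007. COX3 421, COX3 1022 and COX3 1034 were higher in experiment 1, by 0.08, 0.10 and 0.19, and lower in experiment 2, by -0.20, -0.21 and -0.13. Atp5mc1 was higher by 0.15 and 0.38, Ndufaf1 was lower by -0.32 and -0.09, and Mrpl37 differed by -0.32 and 0.04. After median centring 0 of 7 COX3 probes were higher with nitroarginine in NOS experiment 2, and after quantile normalisation 4 of 7 were higher in NOS experiment 1.

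In the limma fit COX3 904 and COX3 350 were both at -0.23 (SE 0.32 and 0.35), Ndufaf1 at -0.21 (SE 0.48), Mrpl37 at -0.14 (SE 0.28) and Atp5mc1 at 0.27 (SE 0.67). Of the 12, 2 were above 0, with a median of -0.07, against 540 of 1152 and -0.01. None of the 12 passed, as did 0% of all probes, with 1 probe at an unadjusted p under 0.05. Against the control, NMDA with nitroarginine was at 0.45 (SE 0.68) for COX3 1034, 0.37 (SE 0.36) for COX3 421, -0.11 (SE 0.35) for COX3 350 and -0.25 (SE 0.28) for Mrpl37, with none of the 12 past the threshold, as was 0% of all probes, and 1 probe at an unadjusted p under 0.05. These comparisons share the NMDA or the control arrays with NMDA against control, so a lower value in one and a higher value in another are not separate observations.

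**Figure D3:**
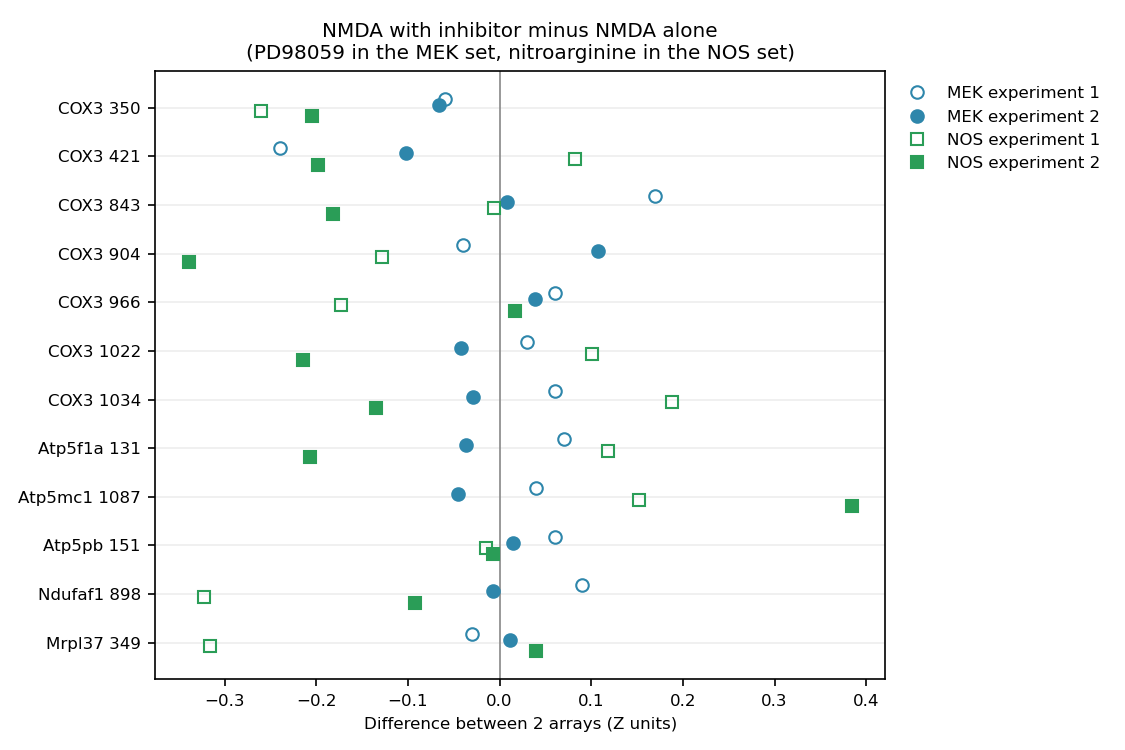
Difference in Z-score between NMDA with inhibitor and NMDA alone on arrays of the same experiment (horizontal axis, Z units) for each of the 12 probes, 1 marker per experiment, with PD98059 in the MEK set and nitroarginine in the NOS set. The PD98059 markers lie between -0.24 and 0.17, and the nitroarginine markers of COX3 350, COX3 904 and Ndufaf1 lie left of 0 in both experiments.

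Between the 2 experiments of the NOS set these genes differed widely at the same treatments. COX3 843 averaged 0.15 ± 0.30 (SD, n = 3 arrays) in experiment 1 and 1.79 ± 0.12 in experiment 2, a difference of 1.65. The difference was 1.49 for COX3 966, 1.44 for COX3 1034, 1.34 for COX3 1022, 0.71 for COX3 421, 0.70 for COX3 350 and 0.43 for COX3 904. Ndufaf1 was higher in experiment 2 by 1.02, Atp5pb by 0.68 and Mrpl37 by 0.43, whereas Atp5mc1 and Atp5f1a were lower, at -1.48 and -0.73. The 3 arrays of experiment 2 were all above the 3 of experiment 1 for 9 of 12 probes, among them 6 of 7 COX3 probes, and for 47% of all probes. They were all below for 2 of 12, Atp5f1a and Atp5mc1, and for 28.6% of all probes. Complete separation was thus common over the array, and the counts are a description of these genes. Whether they set the genes apart was not tested. At the 3 treatments, the differences of COX3 843, COX3 966, COX3 1022 and COX3 1034 lay between percentiles 94.5 and 99.9 of all probes. Those of the other COX3 probes lay between 51.9 and 95.7.

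The COX3 median difference was 1.27 in control, 1.26 with NMDA and 1.22 with NMDA and nitroarginine, against 0.15, 0.30 and 0.26 over all probes. Scaling changed the sign for 3 probes: COX3 350 was at -0.08 after quantile normalisation, and Atp5f1a at 0.24 and Mrpl37 at -0.06 after removal of the running median. Part of the shift ran along the probe order. The 24 nearest probes had a median difference of 0.71 around COX3 350, 0.73 around Mrpl37, 0.74 around COX3 843 and 0.63 around COX3 966, but -0.12 around COX3 1022, -0.21 around COX3 1034 and 0.31 around Atp5mc1. Around Ndufaf1 the neighbours were at 0.06. COX3 1022, COX3 1034, Atp5mc1 and Ndufaf1 thus differed between the experiments by more than 1 unit beside neighbours at 0.31 or less. The neighbours were also nearer to 0 than the probe for COX3 421 (0.71 beside 0.09), Atp5f1a (-0.73 beside -0.04), Atp5pb (0.68 beside 0.26) and COX3 904 (0.43 beside 0.18). What separates the experiments was not tested.

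**Figure D4:**
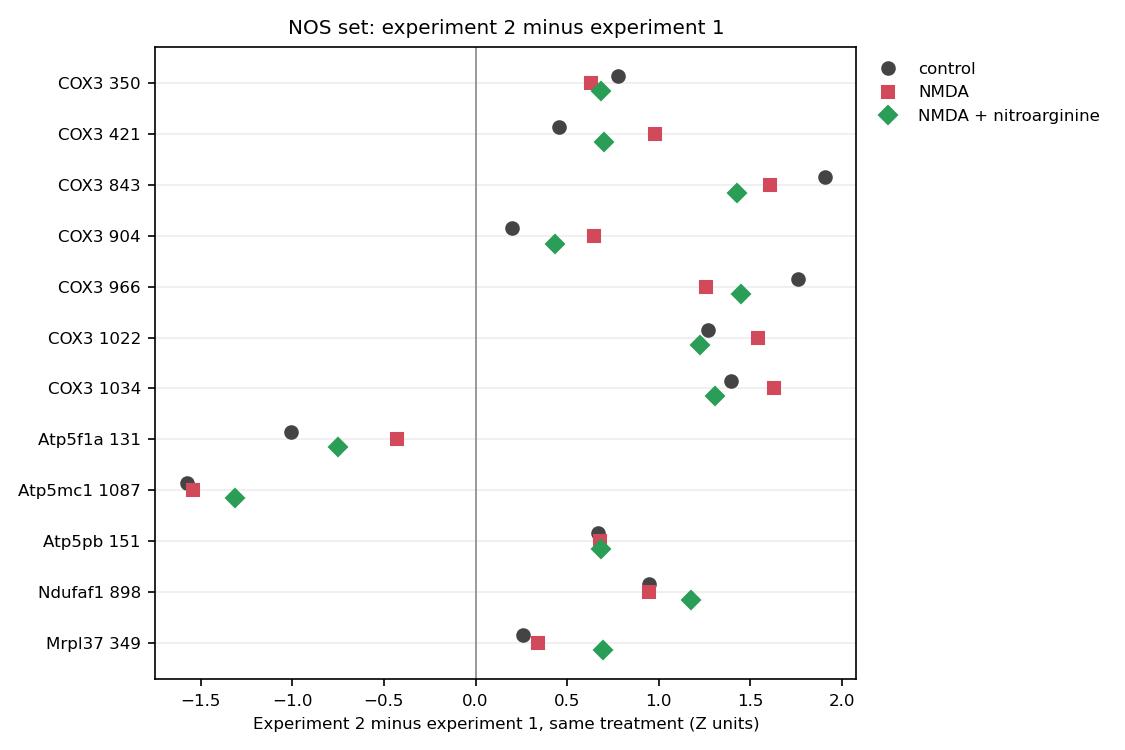
Difference in Z-score between NOS experiment 2 and NOS experiment 1 at the same treatment (horizontal axis, Z units) for each of the 12 probes, 1 marker per treatment and no error bar. All COX3 markers lie right of 0, those of Atp5f1a and Atp5mc1 lie left, and the 3 treatments of a probe lie nearer to each other than to 0 for most probes.

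The nNOS knockout addresses what lasting loss of the neuronal enzyme does in adult cortex. With 1 array per genotype there is no replicate check and no test. COX3 350 had 2.35 in the knockout and 2.65 in the wild type, COX3 966 had 0.72 and 1.09, COX3 843 had -0.14 and 0.18, and COX3 1022 had 0.49 and 0.65. COX3 904 had -0.36 and -0.23, COX3 1034 had 0.59 and 0.68, and COX3 421 had 0.60 and 0.55. Of 7 COX3 probes 1 was higher in the knockout, with a median difference of -0.17. Mrpl37 had 0.07 and 0.52, the largest difference of the 12 at -0.46, and Atp5pb had -1.18 and -0.92. Atp5mc1 was higher in the knockout, at 1.07 against 0.85, and Atp5f1a (0.51 and 0.55) and Ndufaf1 (2.39 on both) hardly differed.

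Over the 12 probes 2 were higher in the knockout and the median difference was -0.14, against 583 of 1152 and 0.003 over the array, where the SD of the differences was 0.20. Mrpl37 stood at percentile 2.2 of all differences, COX3 966 at 3.6, COX3 843 at 4.9, COX3 350 at 5.4, Atp5pb at 7.6 and Atp5mc1 at 88.2. None of the 12 differed by 0.5 units or more, as 2.34% of all probes did. The sign of each of the 12 differences was the same after median centring, quantile normalisation and removal of the running median, except Ndufaf1, at 0.13 after quantile normalisation. The difference of COX3 350 shrank to -0.04 after removal of the running median. The mean Z-score of the neuronal markers was 0.15 in the knockout and 0.01 in the wild type, that of the astrocyte markers -0.52 and -0.55 and the value of Csf1r 0.85 and 1.0, and their part in these values was not tested.

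**Figure D5:**
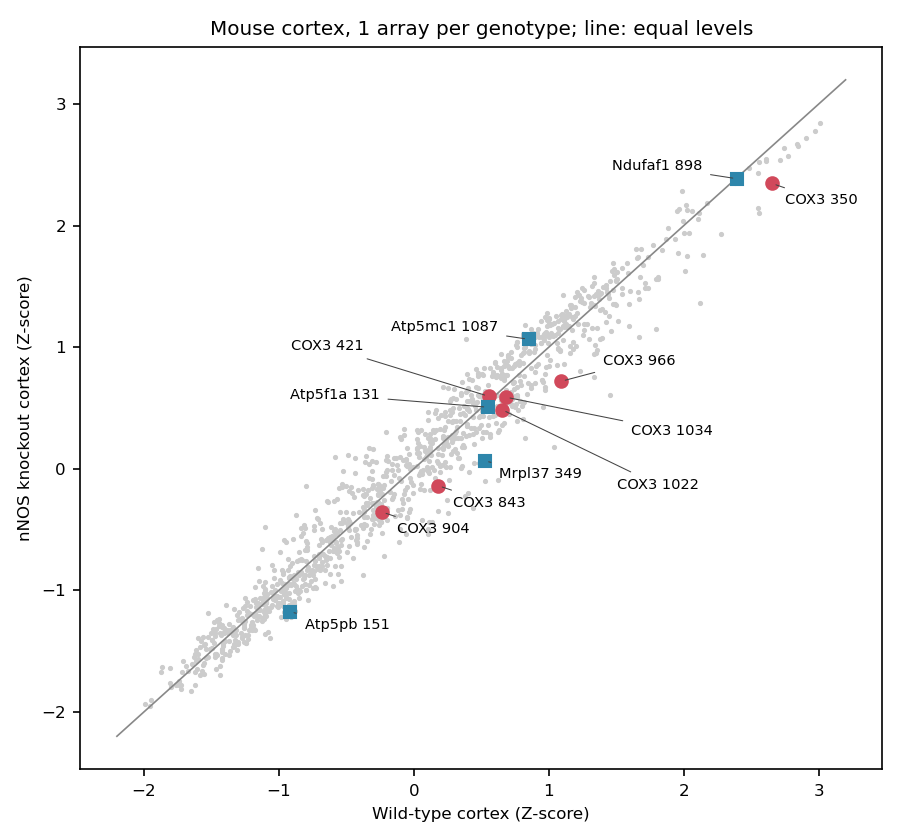
Z-score of every probe in wild-type cortex (horizontal axis) and in nNOS knockout cortex (vertical axis), 1 array each, with COX3 probes as red circles, the 5 nuclear genes as blue squares, other probes in grey and a line of equal levels. Of the 12 named points 10 lie below the line, Mrpl37 farthest from it at a difference of -0.46, and Atp5mc1 and COX3 421 lie above.

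A further 8 mitochondrial genes were on the array with 1 probe each: the ribosomal proteins Mrpl10, Mrpl15 and Mrps14, the elongation factor Gfm1, the fusion protein Mfn2, the carrier Slc25a16, the aminotransferase Got2 and the citric acid cycle subunit Idh3g. No other named probe belonged to the respiratory chain or ATP synthase. With NMDA over both sets 2 of 8 were above 0 in the limma fit, with a median of -0.10, from -0.35 (SE 0.39) for Mrpl15 to 0.15 (SE 0.51) for Mrpl10, and none passed. In the MEK set the extremes were Got2 at -0.29 and Mrpl10 at 0.29, and in the NOS set Mrpl15 at -0.43 and Slc25a16 at 0.02. With PD98059 against NMDA they were Mrpl15 at -0.19 and Got2 at 0.07, and with nitroarginine against NMDA Got2 at -0.21 and Idh3g at 0.30. In the knockout Idh3g was 0.66 above the wild type, the 1 of these 8 past 0.5. In the fit over both sets, the direction of the COX3 probes with NMDA was thus not shared by most of these 8 genes. No test of that contrast was made. By experiment, 4 and 3 of the 8 were above control in MEK experiments 1 and 2, and 3 and 4 in NOS experiments 1 and 2. For COX3 the counts were 6, 2, 7 and 6 of 7. Without the control array of MEK experiment 1, COX3 966 was at -0.12 in the fit over both sets.

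Probes of other genes with the most similar values, measured by the root mean square difference over 14 arrays among 372 named probes, differed between the COX3 probes. They were Npr3 (0.295) for COX3 350, Ppp2r2b (0.157) and Hspa8 (0.165) for COX3 904, and Zfta (0.308) and Actg1 (0.380) for COX3 421. For COX3 843 and COX3 1022 the nearest was Rpl27 (0.343 and 0.188), for COX3 1034 Ppp2r5c (0.277) and for COX3 966 Strap (0.304). Ndufaf1 was nearest to Npr3 (0.401), Atp5f1a to Rgs11 (0.162) and Pkm (0.173), Atp5mc1 to Eef2 (0.229), Atp5pb to Dgkz (0.173) and Mrpl37 to Cnot1 (0.226). The measure sets Z-scores of different clones side by side, so it includes their difference in brightness. It is taken over arrays of all experiments, so it also includes the shift between the experiments.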

How the data were processed

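Transcript abundance was measured on arrays of 1152 probes in 12 rat and 2 mouse samples, with groups and experiment numbers from the labels. The deposited values are scores with a mean of 0 and an SD of 0.857 to 0.999 per array, hence Z-scores. The scale before that step, the background correction and any filter are not given in the sources used here. Genes were named from the platform annotation, an old table that may misname a clone. The 6 genes and the marker and mitochondrial lists were chosen with earlier results of these data known. Named were all 12 probes, the highest and lowest of the other mitochondrial genes per comparison, and the nearest of up to 3 probes of other genes per probe.

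The control column of MEK experiment 1 was moved down by 1 row, leaving 1151 values. The values were fitted as deposited with limma 3.58.1 in R 4.3.3 (6 group means, 6 residual degrees of freedom, 8 contrasts, two-sided moderated tests, Benjamini-Hochberg adjustment over 1152 probes, threshold 0.05). The fit was tested on simulated data with independent noise on each array and no shift between experiments. That test does not cover the shift between the NOS experiments. Its check on calls was made at a spread far below the real one. It thus does not show how many changes would be called at the real spread. The mouse arrays stayed out of the fit. Tables and figures were made in Python 3.11.15 (matplotlib 3.10.9, numpy 2.4.6, pandas 2.3.3). Experiment numbers pair arrays within a set by the labels. Arrays of one experiment deviated together from their group means in the NOS set (r = 0.874 to 0.930) but not in the MEK set (r = -0.14 to 0.07). The number of arrays limits the precision.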

Additional observations from a re-analysis of the deposited data

How the results depend on the processing

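No probe of the 6 genes was called in any of the 8 comparisons under the fit or its 22 alternatives. Of 2104 alternative values, 2004 moved by less than 1 SE, 100 moved by more and 231 took the other sign. Many of these values could not move. The replicate block on all arrays, the trend and robust moderation and the removal of dim probes leave each estimate as it was. Leaving out an array without the block changes only the comparisons that use its group. The share that stayed is therefore no measure of how stable the effects are. The lowest adjusted p was 0.121, with the running median removed and the replicate block, an alternative chosen after seeing the data. With the replicate block (experiment within set, 4 residual degrees of freedom) 0 probes of the array passed in any comparison, the lowest adjusted p of the 12 was 0.323, and no call changed. For NMDA over both sets the block gave unadjusted p values of 0.034 for COX3 421, 0.037 for COX3 904 and 0.039 for COX3 1034 (limma adjusted p = 0.436 each), with 128 of 1152 probes below 0.05. Using the control column of MEK experiment 1 as deposited moved 26 of 96 values by over 1 SE. Leaving out each array in turn gave 0 to 1 calls over the array for NMDA against control over both sets, for NMDA in the MEK set, for the difference between the sets and for PD98059 against control, and 0 for the other 4 comparisons. The 1 call, not in these genes, came without the control of MEK experiment 2. Leaving out the dimmest 25% of probes removed Atp5pb.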
